A study of Mus musculus with 6 samples.

Results

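The 10 genes described here are the core circadian clock genes Per1, Per2, Per3, Nr1d1, Nr1d2, Arntl and Clock and the PAR-bZIP genes Dbp, Tef and Hlf. They were chosen by gene symbol in the platform's probe-to-gene table, which gave 26 probe sets for these 10 of the 18193 genes named on the array. Left ventricles came from 6 male mice of the inbred strain C57BL/6, which readily gains fat when its food is rich in it. All 6 were 6 months of age, with 16 weeks on the high fat diet behind them. 3 of them were given Lira, a name that the labels do not spell out, and 3 were given placebo, so both groups shared the diet, and no group on ordinary food was analysed here. Of the 10 mice in the design text, these 6 were analysed. Each mouse gave 1 array, with a linear fluorescence signal per probe set. The labels give no hour of dissection, so no level could be set against the time of day.

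The circadian clock of mammals is a feedback loop of transcription that runs in almost every cell, heart muscle included. The proteins of Clock and Arntl (also called Bmal1) pair and switch on the Per and Nr1d genes and the PAR-bZIP genes through E-box sequences. PER proteins then repress their own activators, NR1D proteins repress Arntl through RORE sequences, and the PAR-bZIP proteins carry the rhythm to further genes through D-box sequences. In the heart, transcripts of Arntl and those of Per and Dbp therefore peak at opposite times of day.

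Promoters of the 10 genes were searched for the elements of this loop. RefSeq promoter sequences of the mouse assembly GRCm38.p6, each from 250 bases before to 50 after a transcription start, were matched for 9 of the 10 genes in 14 windows, with Per2 not matched. They were searched on both strands for 5 motifs, and no matches overlapped each other. No motif occurred in more than 2 of the 9 genes, and Dbp, Clock and Nr1d2 held none of the 5. The E-box CACGTG occurred in Per1 and Tef and in 7.15% of all 32851 promoter windows. The D-box, searched as TTATGTAA or TTACGTAA, occurred in Per3, at 2 places, and in 1.06% of all windows. The RORE core, searched as TAGGTCA or TGGGTCA, occurred in Arntl and in 6.45% of all windows. The cAMP response element TGACGTCA occurred in Hlf, 9 bases before the start, and in 1.79% of all windows. The E-box variant CACGTT occurred in Nr1d1, on the reverse strand, and in 4.685% of all windows. These shares count windows, whereas the 9 genes are counted whole over 14 windows, so shares and genes are not like for like. Whether a motif was more frequent in these genes was not tested. A match describes the letters in the window and not binding. The bases before the start of Per1, Per3 and Tef and a short stretch of Arntl are shown 5′ to 3′. They hold the 3 elements named in the account of the loop above, with the E-box, D-box or RORE core in capitals.
Per1, chr11:69098699-69098948, plus strand, E-box: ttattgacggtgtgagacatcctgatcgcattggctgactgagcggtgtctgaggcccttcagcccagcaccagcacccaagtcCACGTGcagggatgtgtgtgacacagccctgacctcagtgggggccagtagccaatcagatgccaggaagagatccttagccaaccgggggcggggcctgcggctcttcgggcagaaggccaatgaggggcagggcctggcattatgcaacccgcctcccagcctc
Per3, chr4:151044666-151044915, minus strand, D-boxes: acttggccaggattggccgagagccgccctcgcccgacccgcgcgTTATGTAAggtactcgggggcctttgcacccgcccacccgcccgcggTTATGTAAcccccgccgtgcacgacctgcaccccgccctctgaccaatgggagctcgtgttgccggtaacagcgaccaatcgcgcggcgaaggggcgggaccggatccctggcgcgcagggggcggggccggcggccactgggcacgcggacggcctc
Tef, chr15:81802423-81802672, plus strand, E-box: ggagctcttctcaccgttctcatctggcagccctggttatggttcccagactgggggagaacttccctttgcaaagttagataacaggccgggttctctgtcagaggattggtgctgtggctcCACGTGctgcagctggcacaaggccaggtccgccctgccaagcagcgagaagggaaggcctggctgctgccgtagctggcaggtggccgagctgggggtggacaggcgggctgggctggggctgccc
Arntl, chr7:113207529-113207558, plus strand, RORE core: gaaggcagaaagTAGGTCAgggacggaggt
The E-box began 166 bases before the start of Per1 and 127 before the Tef start shown. A further Tef window also held an E-box, 138 bases before its own start. The D-boxes began 205 and 158 bases before the start of Per3, and the RORE core of Arntl began at base 31 after one of its starts.

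The 2% trimmed mean signal was 150 on each of the 6 arrays. So equal a value points to scaling of the deposited signals and does not show that the arrays were alike. The median signal of an array ran from 28.6 to 39.6, and precision is limited by how few arrays there are. Ventricular muscle genes such as Myl2 were among the brightest signals. Of the atrial markers, Myl7 stayed at or below 17.3 and Sln at or below 32.3, Bmp10 reached 77.4, and Myl4 ranged from 109 to 120.04 in Lira hearts and from 77.1 to 108 in placebo hearts. Of the fat cell markers, Adipoq stayed at or below 16.6, and Fabp4, which endothelium also expresses, was bright in all hearts. The labels' extraction text names blood as the source. Hba-a1 stayed at or below 31.8, Cd3e at or below 39.6 and Cd79a at or below 43.5, Alas2 reached 63.9, and the pan-leukocyte gene Ptprc ranged from 106 to 153 in Lira hearts and from 92.9 to 104 in placebo hearts. 0 of the marker genes passed the adjusted threshold in limma, but several lists were not level between the groups. The summed signal of the 6 cardiomyocyte markers ranged from 150326 to 189892 in Lira hearts and from 148173 to 158388 in placebo hearts, and each of the 6 had a higher mean with Lira. The 4 macrophage markers summed to 1889 to 2114 in Lira hearts and 1754 to 1874 in placebo hearts. The 3 smooth muscle markers summed to 1814 to 3690.2 in Lira hearts and 1428 to 1691 in placebo hearts. Acta2 made up most of the smooth muscle sum, with 3377 in Lira replicate 1. The groups overlapped in the other smooth muscle markers. Myh11 averaged 144 in Lira hearts and 126 in placebo hearts, and Tagln 202 in Lira hearts and 203 in placebo hearts. The 4 endothelial markers summed to 1669 to 1749.9 in Lira hearts and 1335 to 1823 in placebo hearts, and the 4 fibroblast markers to 8628 to 10539 in Lira hearts and 8662 to 8801 in placebo hearts. Single markers differed as much as the clock genes, with log2 differences, Lira minus placebo, of 0.75 ± 0.23 (SE) for Acta2, -0.51 ± 0.13 for Col3a1 and 0.23 ± 0.08 for Dcn, each without overlap of the groups. The part of cell makeup in the differences below was not tested, and in these bulk samples fewer cells of a type and less RNA per cell cannot be told apart.

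The comparison asks how clock gene levels differed between Lira and placebo hearts, all from mice on the high fat diet. Per2, Dbp and Per3 had lower signals in all 3 Lira hearts than in any placebo heart, and Arntl and Clock had higher ones. Per1, Tef and Hlf were lower on average with overlapping groups, and Nr1d1 and Nr1d2 were higher on average with overlapping groups. 0 of the 10 genes passed an adjusted p of 0.05 over the 12735 genes tested in limma, a threshold that 7 genes or 0.055% passed. At an unadjusted p under 0.05 there were 4 of the 10, namely Per1, Per2 and Dbp lower and Clock higher, against 6.02% of all genes (3.12% lower and 2.91% higher). The groups did not overlap in 5 of the 10, which were 3 lower and 2 higher, against 11.4% of all genes (5.41% lower and 5.98% higher). The 10 genes regulate each other, so these counts are not independent observations, and the genes were chosen with results of these data known. The median log2 difference, Lira minus placebo on the log2(signal + 16) scale, was -0.18 for the 10 genes and 0.01 for all genes tested. The median size of the difference without its sign was 0.29 for the 10 genes and 0.13 for all genes. The count of 4 was 2 without Lira replicate 2, where Per1 and Per2 were left. It was 5 without Lira replicate 3, where Arntl joined.

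**Figure D1:**
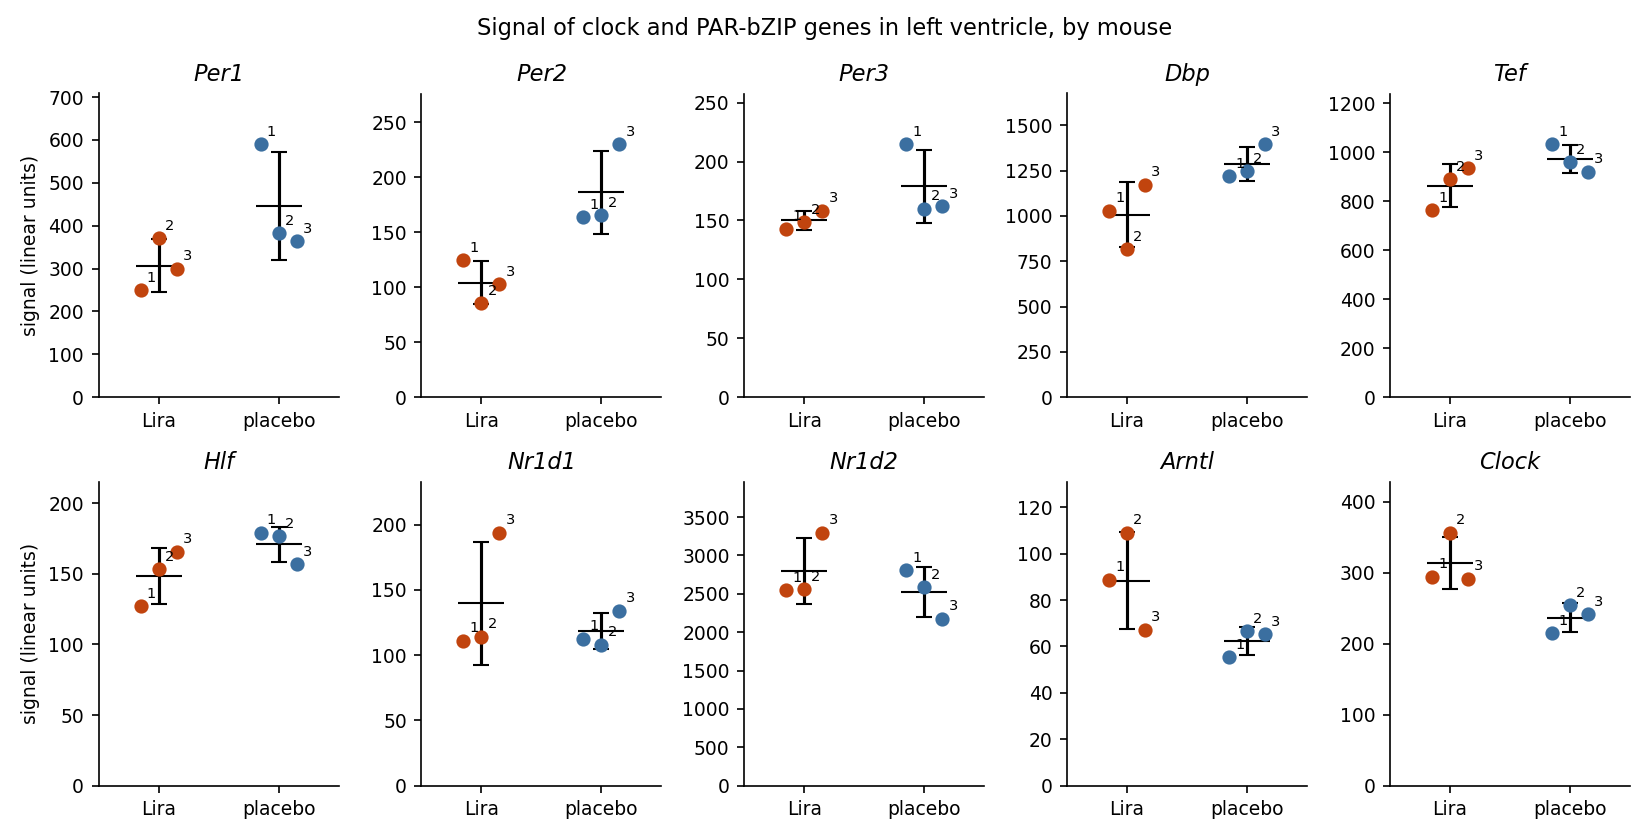
Signal (linear units, vertical axis from 0) of the 10 genes on their brightest probe set in each mouse, Lira left and placebo right, with replicate numbers beside the points and black bars for the mean ± SD of 3 mice. Per2 lay between 85.2 and 124 in Lira hearts and between 163 and 230.0 in placebo hearts, and Clock between 292 and 357 in Lira hearts and between 215 and 255 in placebo hearts.

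The Per genes encode the repressors of the loop, and Per2 had the largest difference and the smallest p of the 10 genes. Per2 measured 124, 85.2 and 103 signal units in Lira hearts and 163, 165 and 230.0 in placebo hearts. The groups were clearly apart, with the lowest value in Lira replicate 2 and the highest in placebo replicate 3. The means were 104 ± 19.6 in Lira hearts and 186 ± 38.0 in placebo hearts (SD, n = 3 each), a log2 difference of -0.75 ± 0.18 (SE) with a 95% confidence interval from -1.13 to -0.37. The unadjusted p was 8.7e-04, rank 30 from the smallest among the 12735 genes, and the adjusted p was 0.36 in limma. In 18 alternative settings the difference stayed between -0.87 and -0.53 and the adjusted p between 0.25 and 0.90. Several of these settings could change only the p-value. A further Per2 probe set also had all 3 Lira hearts below the placebo hearts, at 69.6, 107 and 96.5 in Lira hearts and 160.2, 113 and 135 in placebo hearts, with a log2 difference of -0.51 ± 0.20. The dimmest Per2 probe set averaged 26.3 in Lira hearts and 36.2 in placebo hearts with overlapping groups. All 3 probe sets of Per2 thus gave a lower mean with Lira.

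Per1, which glucocorticoids and cAMP also induce within an hour or so, measured 249, 371 and 299.99 in Lira hearts and 590.3, 383 and 364 in placebo hearts. Placebo replicate 1 was far above all others, and Lira replicate 2 lay above placebo replicate 3, so the groups overlapped. The log2 difference was -0.50 ± 0.18 (adjusted p = 0.69 in limma), and without placebo replicate 1 it was -0.29. Per3, the Per gene that the basic loop can do without, measured 143, 149 and 158 in Lira hearts and 215, 160.1 and 162 in placebo hearts on its brightest probe set. Lira replicate 3 and placebo replicate 2 nearly touched, and placebo replicate 1 was again the highest. The log2 difference was -0.22 ± 0.15 (adjusted p = 0.87), and without placebo replicate 1 it was -0.095. The 5 other Per3 probe sets did not show it, with log2 differences from 0.00 to 0.42. The next brightest of them was at 135, 128 and 115.0 in Lira hearts and 95.3, 114 and 95.03 in placebo hearts, the opposite direction. The direction of Per3 therefore depended on the probe set.

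Dbp, Tef and Hlf encode the 3 PAR-bZIP activators that bind D-boxes, and Dbp is among the most strongly rhythmic transcripts of many tissues. Dbp measured 1029, 816 and 1172 in Lira hearts and 1219.95, 1246 and 1396 in placebo hearts. Lira replicate 3 lay just under the lowest placebo heart, and Lira replicate 2 was far below. The means were 1006 ± 179 in Lira hearts and 1287 ± 95.0 in placebo hearts (SD, n = 3 each), a log2 difference of -0.36 ± 0.12 (95% confidence interval -0.63 to -0.10, adjusted p = 0.64 in limma). Without Lira replicate 2 the difference was -0.22. The other Dbp probe set overlapped, at 727, 656 and 1197 in Lira hearts and 952, 904 and 849.6 in placebo hearts, with Lira replicates 1 and 2 below every placebo heart and Lira replicate 3 above them all. Its log2 difference was -0.12 ± 0.18.

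Tef measured 764, 891 and 935 in Lira hearts and 1033, 958 and 920.2 in placebo hearts, with Lira replicate 3 inside the placebo range. Its log2 difference was -0.17 ± 0.10 (95% confidence interval -0.39 to 0.06), and leaving out Lira replicate 1 made it -0.086. Hlf measured 127, 153 and 166 in Lira hearts and 179, 177 and 157 in placebo hearts, again with Lira replicate 3 inside the placebo range. Its log2 difference was -0.19 ± 0.14 (95% confidence interval -0.50 to 0.12), and leaving out Lira replicate 1 made it -0.090. Its other probe set gave -0.30 ± 0.19. The further Tef probe sets were dim, with log2 differences of -0.52 ± 0.35 and 0.06 ± 0.45. All 3 PAR-bZIP genes thus had lower means with Lira on their brightest probe sets, and for Tef and Hlf the interval of the difference included 0.

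Nr1d1 and Nr1d2 encode REV-ERB alpha and beta, the nuclear receptors that repress Arntl. Nr1d1 measured 111, 114 and 194 in Lira hearts and 113, 108 and 134 in placebo hearts. Lira replicate 3 was far above the other 5 hearts, and the remaining Lira hearts lay within the placebo range. The log2 difference was 0.18 ± 0.20 (adjusted p = 0.94 in limma) and changed sign without Lira replicate 3, to -0.06. Nr1d2 measured 2546, 2559.6 and 3297 in Lira hearts and 2809, 2585 and 2175 in placebo hearts, with Lira replicate 3 again the highest. The log2 difference was 0.15 ± 0.12 (95% confidence interval -0.11 to 0.40), and it was 0.024 without Lira replicate 3 and 0.045 without placebo replicate 3, the lowest heart. Its dim other probe set gave -0.27 ± 0.33. On their brightest probe sets Dbp, Per2 and Per1, which the same activators drive, did not have their highest value in Lira replicate 3, while the other Dbp probe set did.

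Arntl and Clock encode the activators, and both were highest in Lira replicate 2 and lowest in placebo replicate 1. Clock measured 295, 357 and 292 in Lira hearts and 215, 255 and 242 in placebo hearts, without overlap. The means were 314 ± 36.6 in Lira hearts and 237 ± 20.4 in placebo hearts (SD, n = 3 each), a log2 difference of 0.38 ± 0.13 (95% confidence interval 0.11 to 0.66, unadjusted p = 0.010, adjusted p = 0.64 in limma). A further Clock probe set gave the same order, at 164, 215 and 160.1 in Lira hearts and 135, 144 and 137 in placebo hearts, with a log2 difference of 0.33 ± 0.15. The remaining Clock probe sets overlapped, with log2 differences of 0.26 and, on the dimmest, -0.12. Clock is the activator whose transcript hardly cycles in many tissues, while that of Arntl cycles strongly.

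Arntl measured 88.8, 109 and 67.2 in Lira hearts and 55.5, 66.6 and 65.3 in placebo hearts. Lira replicate 3 was barely above placebo replicate 2, and the other Lira hearts were well above. The means were 88.3 ± 21.0 in Lira hearts and 62.4 ± 6.08 in placebo hearts, a log2 difference of 0.39 ± 0.20 (95% confidence interval -0.04 to 0.83, unadjusted p = 0.074, adjusted p = 0.84 in limma). Leaving out Lira replicate 2 made it 0.25, and leaving out Lira replicate 3 made it 0.55. The other Arntl probe set was dimmer, at 21.0, 54.8 and 45.3 in Lira hearts and 42.5, 51.8 and 42.7 in placebo hearts, with a log2 difference of -0.18 ± 0.30. It did not show the higher Arntl level of the brighter one.

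**Figure D2:**
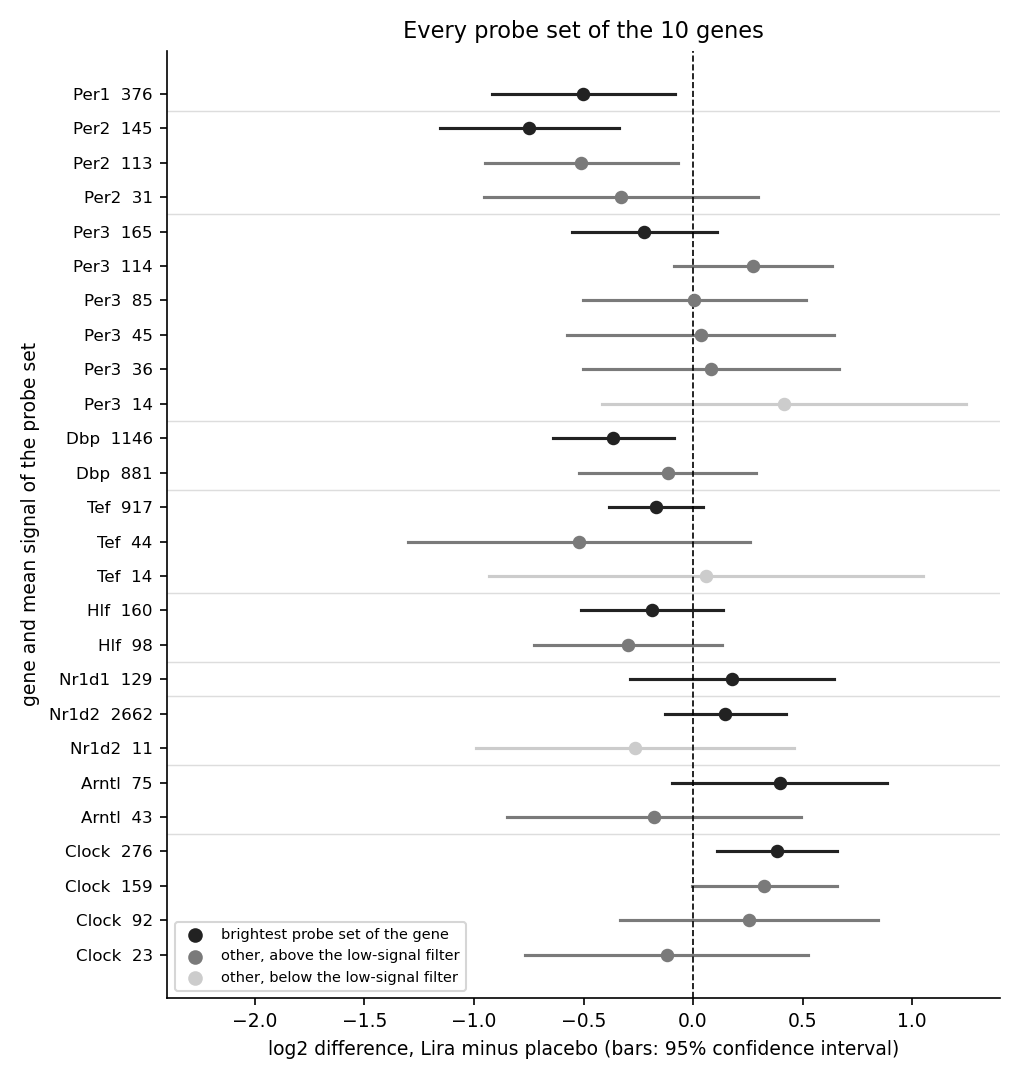
Log2 difference, Lira minus placebo (horizontal axis), of all 26 probe sets of the 10 genes with 95% confidence intervals from the limma fit over every probe set, each row labelled with the gene and the mean signal over 6 arrays. The 3 Per2 probe sets lie at -0.75, -0.51 and -0.33, whereas those of Per3 and Arntl lie on both sides of 0.

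The 10 genes together gave each heart a pattern. Each gene was centred on its mean over the 6 arrays on the log2 scale, and the 8 genes that the activators drive (3 Per, 3 PAR-bZIP and 2 Nr1d genes, the output arm) were averaged apart from Arntl and Clock (the activator arm). The output arm stood at -0.22, -0.18 and 0.04 in Lira hearts and at 0.21, 0.05 and 0.10 in placebo hearts. The activator arm stood at 0.17, 0.42 and -0.01 in Lira hearts and at -0.32, -0.11 and -0.15 in placebo hearts. Output minus activator was -0.38, -0.60 and 0.05 in Lira hearts and 0.53, 0.16 and 0.25 in placebo hearts, with means of -0.31 ± 0.33 in Lira hearts and 0.31 ± 0.20 in placebo hearts (SD, n = 3 each). Lira replicates 1 and 2 had low output and high activator levels, all 3 placebo hearts the reverse, and Lira replicate 3 stood next to placebo replicate 2. These arm values describe the arrays and were not tested, since the genes were chosen with their values known.

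**Figure D3:**
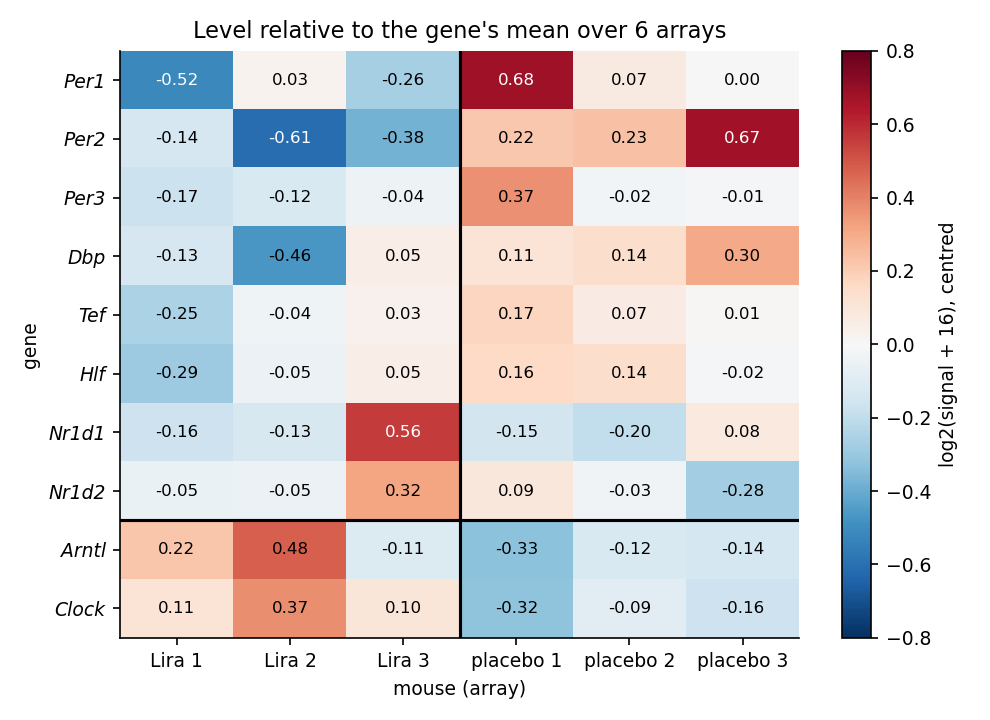
Level of each gene (rows) in each mouse (columns, Lira left of placebo) on the log2(signal + 16) scale after centring on the gene's mean over 6 arrays, with the value in each cell and red for above and blue for below the mean. Lira replicate 2 has the lowest Per2 (-0.61) and Dbp (-0.46) and the highest Arntl (0.48) and Clock (0.37), and Lira replicate 3 the highest Nr1d1 (0.56) and Nr1d2 (0.32).

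The families of the output arm ordered the hearts differently. The mean of the 3 Per genes was -0.28, -0.23 and -0.23 in Lira hearts and 0.42, 0.09 and 0.22 in placebo hearts. The groups did not overlap in this mean, but its narrow range with Lira hid opposite orders of Per1 and Per2. In the Lira hearts Per1 stood at -0.52, 0.03 and -0.26 and Per2 at -0.14, -0.61 and -0.38. The PAR-bZIP mean was -0.23, -0.18 and 0.05 in Lira hearts and 0.15, 0.12 and 0.10 in placebo hearts. The Nr1d mean was -0.11, -0.09 and 0.44 in Lira hearts and -0.03, -0.11 and -0.10 in placebo hearts. Lira replicate 3 thus combined low Per levels with PAR-bZIP levels close to those of placebo hearts and the highest Nr1d levels. Placebo replicate 1 was the highest heart for 4 of the 10 genes (Per1, Per3, Tef and Hlf) and the lowest for Arntl and Clock, and Lira replicate 1 was the lowest heart for those same 4 genes.

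**Figure D4:**
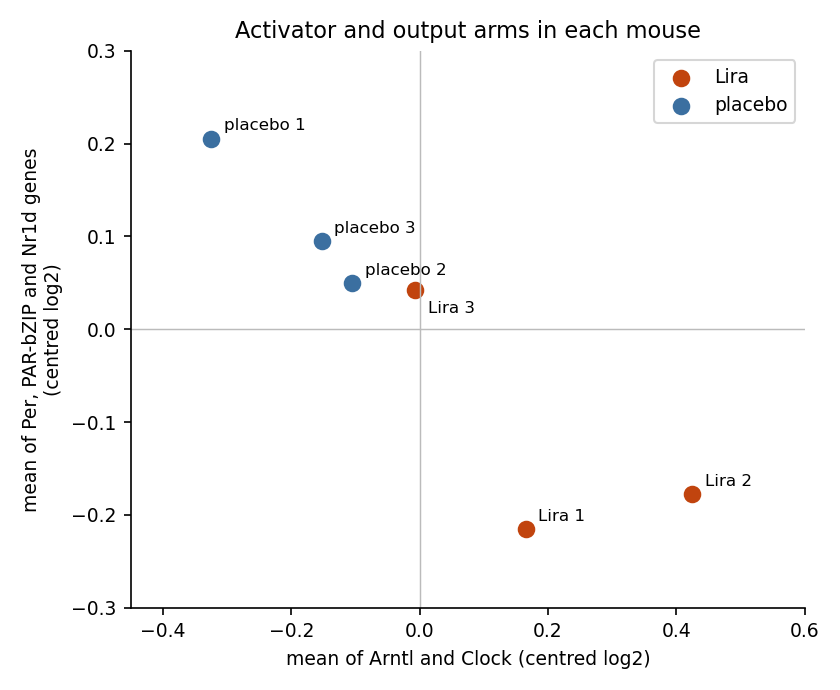
Mean of the 8 output genes (vertical axis) against the mean of Arntl and Clock (horizontal axis) in each of the 6 mice, both as centred log2 values. Lira replicates 1 and 2 lie at the lower right and the placebo hearts at the upper left, with Lira replicate 3 beside placebo replicate 2.

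Arntl was set against each of the 9 other genes across the 6 hearts, as Pearson's r and Spearman's rho on the log2 scale with two-sided exact permutation p-values adjusted over the 9 relations. Arntl and Clock went together, with r = 0.92 (exact permutation p = 0.0014, the smallest that 720 orders can give, adjusted 0.013) and rho = 1 (exact permutation p = 0.0028, adjusted 0.025). After the 2 hearts farthest from the median of Arntl were left out, Lira replicates 1 and 2, r was 0.85 over 4 hearts, and with each group centred on its own mean r was 0.84. Arntl and Dbp had opposite orders, with r = -0.90 (exact permutation p = 0.015, adjusted 0.069) and rho = -0.83 (exact permutation p = 0.058, adjusted 0.15). Without those same hearts r was 0.13, so the relation of Arntl to Dbp rested on them. Within groups it was -0.77. Arntl and Per3 gave r = -0.75 (exact permutation p = 0.11, adjusted 0.20) and rho = -0.94 (exact permutation p = 0.017, adjusted 0.075). Of the other 6 genes, the Pearson values ran from -0.69 for Per2 to -0.19 for Nr1d2, with adjusted exact permutation p-values from 0.20 to 0.73. Within groups their order was different. There r was -0.79 for Nr1d2, -0.74 for Nr1d1, -0.40 for Tef, -0.38 for Hlf, -0.15 for Per2 and -0.02 for Per1. The Arntl probe set used here is a dim one, and the relation of Arntl to Clock was the only 1 of the 9 that passed after adjustment. Both genes were higher in all Lira hearts, and the permutations ignored the groups, so the group difference enters that p-value. The within-group values were not tested.

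The remaining genes of the clock machinery were read from a list of 15, of which 13 were tested. 0 passed the adjusted threshold in limma, 2 were lower and 0 higher at an unadjusted p under 0.05, against 3.12% lower and 2.91% higher over all genes. The groups did not overlap in 0 of the 13, against 11.4% of all genes. Their median log2 difference was 0.10, against 0.01 for all genes. Ciart, which encodes a repressor of the activator pair, measured 132, 164 and 255 in Lira hearts and 273, 278 and 221 in placebo hearts, a log2 difference of -0.49 ± 0.19 (adjusted p = 0.75). Nfil3, which encodes the repressor that competes with the PAR-bZIP proteins for D-boxes, measured 77.2, 93.9 and 149 in Lira hearts and 157, 145 and 143 in placebo hearts, a log2 difference of -0.46 ± 0.20 (adjusted p = 0.79). For both genes Lira replicates 1 and 2 lay below every placebo heart and Lira replicate 3 among them. The next smallest p-values belonged to the kinase gene Csnk1e, with a log2 difference of 0.23 ± 0.12, and to the repressor gene Cry1, with -0.32 ± 0.21. Npas2, a stand-in for Clock, differed by 0.18 ± 0.31 at a dim signal of 35.2 in Lira hearts and 30.1 in placebo hearts.

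Genes that the clock is known to drive in heart or other tissues were read from a list of 14, of which 13 were tested. 0 passed the adjusted threshold in limma, and 2 were higher and 1 lower at an unadjusted p under 0.05, against 2.91% higher and 3.12% lower over all genes. The groups did not overlap in 3 higher and 1 lower, against 5.98% higher and 5.41% lower over all genes. Their median log2 difference was -0.04. Alas1, which encodes the enzyme that starts heme synthesis and is a PAR-bZIP target in liver, measured 1869, 1678 and 1553 in Lira hearts and 2165, 1973 and 2346 in placebo hearts, a log2 difference of -0.34 ± 0.10 (adjusted p = 0.55). Tcap, which encodes the titin cap protein of the Z-disc, differed by 0.17 ± 0.08, and Kcnh2, which encodes a repolarising potassium channel, by 0.23 ± 0.10. Kcnh2 measured 512, 468 and 489 in Lira hearts and 415, 413 and 419 in placebo hearts, without overlap. Tsc22d3, which glucocorticoids also induce, differed by -0.23 ± 0.11. Wee1, Usp2 and Klf15, which follow the clock in many tissues, differed by -0.17 ± 0.17, -0.14 ± 0.13 and 0.07 ± 0.15, and their groups overlapped. Klf9 differed by 0.15 ± 0.08 without overlap, and Nampt by 0.24 ± 0.14 with overlap. Of the 13 genes, 6 had a positive and 7 a negative log2 difference.

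The Entrez gene IDs of the 10 genes are 18626 for Per1, 18627 for Per2, 18628 for Per3, 13170 for Dbp, 21685 for Tef, 217082 for Hlf, 217166 for Nr1d1, 353187 for Nr1d2, 11865 for Arntl and 12753 for Clock.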

How the data were processed

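Total RNA from the left ventricle of 6 mice was hybridised to Affymetrix mouse arrays, 1 array per mouse. Per the submitters' processing notes, the authors computed the deposited signal intensities, which are on a linear scale with 1 value per probe set, in Affymetrix Expression Console. Its version, its algorithm and the genome build were not given in the sources used here. Each array has a 2% trimmed mean of 150, so only changes relative to other genes can be seen, and no detection calls were used.

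Of 45101 probe sets, 64 controls were left out and 34958 had 1 gene in the name table, while 932 with several genes were not used. Symbols were brought up to RefSeq GRCm38.p6 by gene ID (34754 matched). For each of 18193 genes the brightest probe set on average stood for the gene. Signals were transformed to log2(signal + 16), and a filter removed the dimmest 30% of genes by mean signal, leaving 12735. All 10 clock genes passed. This scale understates changes of dim genes. Values of other probe sets of a gene come from the same fit over every probe set, without the filter. The whole table was fitted with lmFit and trended eBayes (limma 3.58.1, R 4.3.3), as Lira minus placebo, tested two-sided and adjusted after Benjamini-Hochberg with a threshold of 0.05. The fit was tested on simulated data for this comparison (12735 genes, 200 changed, 10 data sets) and called 72.2% of the 2-fold and 32.8% of the 1.5-fold changes. The exact permutation test of 1 value between 3 and 3 arrays cannot go below 0.10.

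The members and lists were chosen with earlier results of these data known. Named are all 10 members with their probe sets, marker genes, and the 5 genes most and least like Dbp. Of each further list, the members at an unadjusted p under 0.05 are named, filled up to the 4 smallest p. A few more list members were chosen after their values were seen (Npas2, Wee1, Usp2, Klf15, Klf9, Nampt). Alternatives were quantile normalisation, median centring, pseudocounts of 1 and 64, no filter or one at 50%, averaged or separate probe sets, other variance models, array weights, a replicate block and each array left out.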

Additional observations from a re-analysis of the deposited data

How the results depend on the processing

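All 10 clock genes missed the adjusted threshold of 0.05 in limma in each of 18 alternatives, with adjusted p from 0.25 upward. Of 180 differences recomputed for single genes, 177 kept their sign. Many of these could not change. With separate probe sets the reported one was read again. The filters, the other variance models and the replicate block do not alter a difference, only its p-value. With probe sets averaged per gene, Per3 was at 0.10, Nr1d2 at -0.060 and Dbp at -0.24. Averaging brings in dim probe sets, but also brighter ones. Among these are a Per3 probe set at a mean signal of 114 (log2 difference 0.27) and a Dbp one at 881 (-0.12). Without Lira replicate 3 Nr1d1 was at -0.059 (range over left-out arrays -0.059 to 0.30). The count of clock genes at an unadjusted p under 0.05, 4 in the fit reported, was 2 with the mean of probe sets (Per1 and Per2) and 2 without the variance trend (Per2 and Clock), and 2 to 5 with 1 array left out. Output minus activator differed by -0.62 between the groups, by -0.35 with the mean of probe sets and by -0.80 to -0.48 with 1 array left out. Over all genes, 7 passed in the fit reported. Averaged probe sets gave 0 (688 at an unadjusted limma p under 0.05) and no variance trend gave 0 (683 likewise), every probe set gave 2, no filter gave 1, and leaving out 1 array gave 1 to 9, with 1 without Lira replicate 3 and 2 without placebo replicate 2. The cause of these changes was not tested. Deviations of same-numbered arrays correlated at -0.03, 0.08 and -0.09, within the range of -0.15 to 0.18 for differently numbered ones. Such values over all genes cannot decide whether same-numbered mice shared a day or hour of dissection. With the replicate block 7 genes passed, 0 of them clock genes, and 4 clock genes had an unadjusted p under 0.05.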

Other observations

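Of 1679 genes tested whose SD over the 6 arrays was at least 0.4 on the log2 scale, 27 had a Pearson r with Dbp of at least 0.9 in size. The 5 most like Dbp over the 6 hearts were S100a10 (r = 0.97), Osbpl5 (0.96), Brat1 (0.95), Cwc25 (0.95) and Cbarp (0.95). The 5 most unlike it were Scarf2 (-0.96), Atp8b3 (-0.95), Igtp (-0.95), Orai2 (-0.92) and BC023105 (-0.92). Several in both sets were dim. Cbarp ranged from 5.75 to 67.4 over the 6 hearts, Osbpl5 from 22.8 to 94.2, Orai2 from 19.2 to 74.8 and Atp8b3 from 8.0 to 58.7. S100a10, which encodes a calcium-binding protein family member, measured 504, 305 and 733 in Lira hearts and 631, 874 and 1089.7 in placebo hearts. The GTPase gene Igtp measured 636, 727 and 384 in Lira hearts and 389, 418 and 298 in placebo hearts. These genes were picked from many for their likeness over 6 arrays, so no p-value is given.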
